A study of Mus musculus with 16 samples.

Results

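Transcripts of 10 Kruppel-like factors (Klf2, Klf3, Klf4, Klf6, Klf7, Klf9, Klf10, Klf11, Klf13 and Klf16) were followed in bone marrow-derived macrophages (BMDMs) exposed to medium conditioned by tumor cells. The members were taken by gene symbol from the 55487 genes of the count table, and all 10 were measured in all 16 samples. The macrophages were grown from bone marrow of wild-type (WT) Balb/c mice aged 8 weeks and were serum starved before treatment. They were kept without conditioned medium (DMEM, n = 2), without it but with ruxolitinib (DMEM + Rux, n = 3), in conditioned medium of 4T1 cells (CM, n = 3), in CM together with ruxolitinib (CM + Rux, n = 3), or in CM together with both ruxolitinib and the inhibitor IKK-16 (CM + Rux + IKK-16, n = 3). In the groups with CM, ruxolitinib was used at 0.5 μM and IKK-16 at 0.8 μM. A further 2 samples of CM with ruxolitinib carry a label of 2 h (CM + Rux 2 h), where the 3 others carry a label of 4 h. The labels do not say what was timed. The study's methods give 4 h of treatment with CM and ruxolitinib for RNA, and describe no such treatment of 2 h. The dose of ruxolitinib in DMEM is not given in the sources used here. 4T1 is a mammary tumor cell line of the mouse. Ruxolitinib blocks JAK1 and JAK2, the kinases that phosphorylate STAT proteins, and IKK-16 blocks the IKK kinases upstream of NF-κB. Nothing states that replicates came from separate animals, so p-values measure the spread between these samples, which may be technical.

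Kruppel-like factors are transcription factors that bind GC-rich and CACCC elements through zinc fingers at their C-terminal end. Their N-terminal regions differ and sort the family into activators such as Klf2, Klf4, Klf6 and Klf7, repressors that recruit CtBP, such as Klf3, and repressors that recruit Sin3, such as Klf9, Klf10, Klf11, Klf13 and Klf16. In monocytes and macrophages Klf2 is known as a brake on inflammatory activation, Klf4 for its part in monocyte differentiation and alternative activation, and Klf6 as a partner of NF-κB at inflammatory genes.

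The samples held from 18449388 to 46215853 counted fragments, and the lowest count of any member in any sample was 42 (Klf2, CM). Values are given as CPM, counts relative to the library total, after scaling by relative log expression. All 8 macrophage markers were found. From DMEM to CM + Rux the mean of Cd14 went from 2111 to 12717 CPM, of Itgam from 110 to 166 CPM and of Adgre1 from 1530 to 1699 CPM, while Csf1r went from 3557 to 2379 CPM, Cd68 from 1553 to 1421 CPM, Lyz2 from 34123 to 32447 CPM, Fcgr1 from 102 to 52.5 CPM and Mertk from 25.4 to 5.18 CPM. In CM alone the means were 13548 CPM for Cd14, 218 CPM for Itgam, 1449 CPM for Adgre1 and 2329.5 CPM for Csf1r. Those of Cd68, Lyz2, Fcgr1 and Mertk were 1411, 31294.5, 155 and 17 CPM in CM. Against DMEM, Adgre1 was thus lower and Fcgr1 higher in CM, unlike in CM + Rux. All 6 epithelial, 4 B cell and 4 erythroid markers stayed below 1 CPM in every sample, as did 5 of 6 neutrophil, 5 of 6 T and NK cell, 3 of 5 dendritic cell, 1 of 5 fibroblast and 2 of 4 endothelial markers. The summed dendritic cell markers were 1.27 to 2.19 CPM in DMEM, 4.34 to 6.83 CPM in CM and 13.6 to 17.2 CPM in CM + Rux 2 h, and their part in the results was not tested. In bulk RNA, fewer cells of a type and less RNA per cell cannot be told apart.

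Per kb of exon, Klf6 was the most abundant member in every group, and Klf13 had the next highest mean. The mean level of Klf6 ran from 87.2 CPM per kb in CM to 114 CPM per kb in CM + Rux 2 h, and that of Klf13 from 17.5 CPM per kb in DMEM + Rux to 34.4 CPM per kb in CM + Rux 2 h. The lower places changed hands between the media. Klf2 had a mean of 11.0 CPM per kb in DMEM, behind Klf6 and Klf13, and of 2.75 CPM per kb in CM, where its range overlapped that of Klf4 at 2.45 CPM per kb. Klf7 had a mean of 3.37 CPM per kb in DMEM and of 17.2 CPM per kb in CM, where its range overlapped that of Klf16 at 16.2 CPM per kb. Klf4 had the lowest mean in DMEM (2.02 CPM per kb) and in DMEM + Rux (2.05 CPM per kb), and Klf11 in the groups with CM (0.896 to 1.73 CPM per kb). In DMEM the ranges of Klf3 and Klf16, neighbours at 7.37 and 7.34 CPM per kb, overlapped, as did those of Klf9 and Klf11 at 2.76 and 2.66 CPM per kb.

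**Figure D1:**
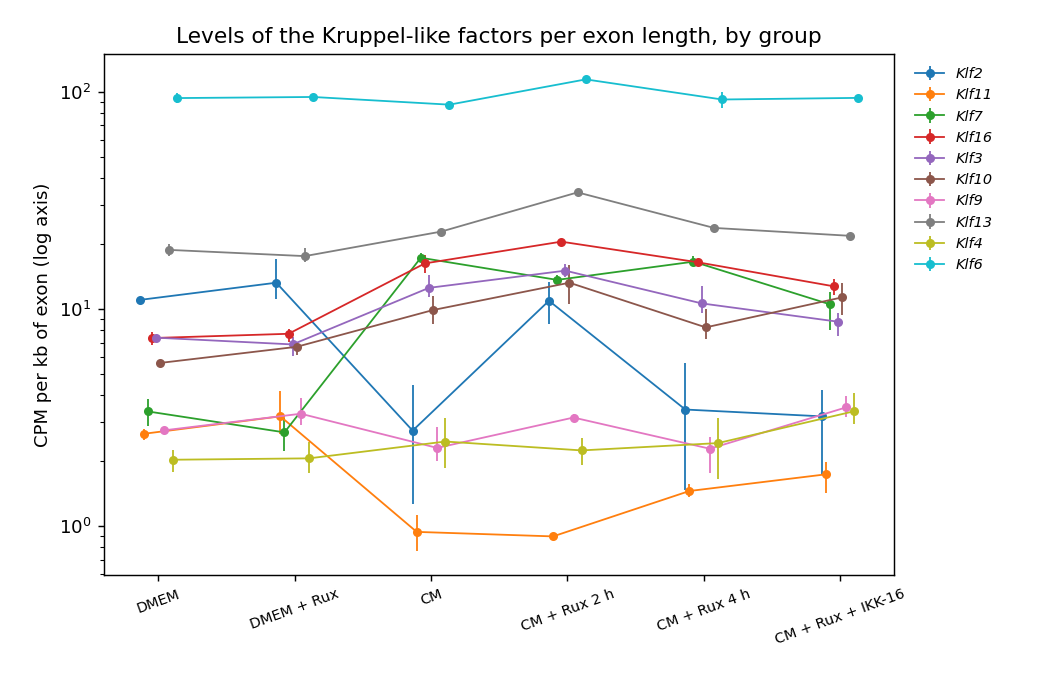
Mean level of each member in CPM per kb of exon (log axis) in the 6 groups, with bars from the lowest to the highest sample and lines joining the points of a gene. Klf6 lies highest in every group, Klf7 lies at 3.37 in DMEM and 17.2 in CM, and Klf2 lies at 11.0 in DMEM and 2.75 in CM.

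The comparison of CM with DMEM asks what the soluble factors of the tumor cells changed in macrophages. Klf7, Klf16, Klf10 and Klf3 rose and Klf2 and Klf11 fell in CM. A gene was called at an adjusted p-value under 0.05 (Benjamini-Hochberg) and a log2 fold change beyond 0.5. Of the 10 members, 4 were called higher and 2 lower, where 20.9% and 24.1% of the 12372 genes tested were called in these directions. The samples of the groups did not overlap for 7 members, and for 74.8% of all genes. The median log2 fold change was 0.29 over the members and -0.00496 over all genes. The direction of small changes depends on the scaling: relative log expression moved the log2 fold changes of this comparison up by 0.311 against scaling by total counts alone, under which 1536 genes were called higher and 4605 lower, in place of 2584 and 2980. Changes below are given on the relative log expression scale.

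Of the activators, Klf2 fell most. Klf2, on chromosome 8 (GRCm38, 72319033 to 72321656, plus strand), stood at 20.3 and 20.3 CPM in the 2 DMEM samples and at 2.33, 8.22 and 4.68 CPM in CM. Every CM sample lay below both DMEM samples, and replicate 1 was the lowest. The log2 fold change was -1.95 (SE 0.51), a 3.86-fold lower level, with an adjusted p = 0.0041. It kept its call without any sample, with log2 fold changes from -2.50 to -1.64.

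Klf7, a widely expressed activator on chromosome 1 (64029447 to 64122282, minus strand), moved the other way. It was measured at 31.4 and 23.5 CPM in DMEM and at 139, 147 and 134 CPM in CM, and the lowest CM sample lay far above the highest DMEM sample. The log2 fold change of 2.35 (SE 0.19), 5.09-fold, was the largest of the members in size, with an adjusted p = 1.8e-07. The other activators were not called. Klf4 (chromosome 4, 55527143 to 55532466, minus strand) was at 5.43 and 6.87 CPM in DMEM and at 5.67, 9.53 and 7.24 CPM in CM. Klf6 (chromosome 13, 5861482 to 5870394, plus strand) was at 389 and 432 CPM in DMEM and at 399, 369 and 381 CPM in CM. The groups overlapped for both genes, with log2 fold changes of 0.30 for Klf4 (adjusted p = 0.35) and -0.10 for Klf6 (adjusted p = 0.29). Klf4 was at -0.02 with total counts. With the replicate number as a block Klf4 passed the test inside the fold threshold (0.38, adjusted p = 0.043).

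Klf3, the repressor that recruits CtBP (chromosome 5, 64803388 to 64832901, plus strand), rose from 80.3 and 85.3 CPM in DMEM to 127, 161 and 132 CPM in CM. The groups did not overlap, and the log2 fold change was 0.76 (SE 0.15, adjusted p = 5.3e-04). It lost its call with scaling by total counts, which gave a log2 fold change of 0.45.

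The repressors of the Sin3-binding class went in both directions. Klf16 (chromosome 10, 80567124 to 80577321, minus strand) was at 21.0 and 18.3 CPM in DMEM and at 39.0, 43.7 and 47.6 CPM in CM, a log2 fold change of 1.15 (SE 0.10, adjusted p = 6.0e-07). Klf10, which was found as a gene induced early by TGF-β (chromosome 15, 38291463 to 38300706, minus strand), was at 23.4 and 23.8 CPM in DMEM and at 35.6, 48.1 and 40.1 CPM in CM. Its log2 fold change was 0.81 (SE 0.20, adjusted p = 0.0027), and it also lost its call with scaling by total counts (0.50). For both genes every CM sample lay above both DMEM samples. Klf11, the closest relative of Klf10 (chromosome 12, 24651274 to 24662789, plus strand), fell from 10.9 and 12.2 CPM in DMEM to 3.34, 4.07 and 4.84 CPM in CM. The groups were well apart, with a log2 fold change of -1.49 (SE 0.21, adjusted p = 2.8e-05).

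Klf9 and Klf13 were not called in CM. Klf9, a target of glucocorticoid and thyroid hormone receptors (chromosome 19, 23141226 to 23168134, plus strand), was at 13.1 and 13.4 CPM in DMEM and at 9.78, 13.7 and 9.56 CPM in CM. Its groups overlapped through CM replicate 2, and its log2 fold change was -0.26 (adjusted p = 0.24), or -0.58 with total counts, which was called. Klf13, known for driving Ccl5 in T cells (chromosome 7, 63886351 to 63938915, minus strand), was at 149 and 133 CPM in DMEM and at 175, 165 and 173 CPM in CM. Its groups did not overlap and its adjusted p was 0.0052, but its log2 fold change of 0.28 lay within the threshold, and it was -0.03 with total counts.

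**Figure D2:**
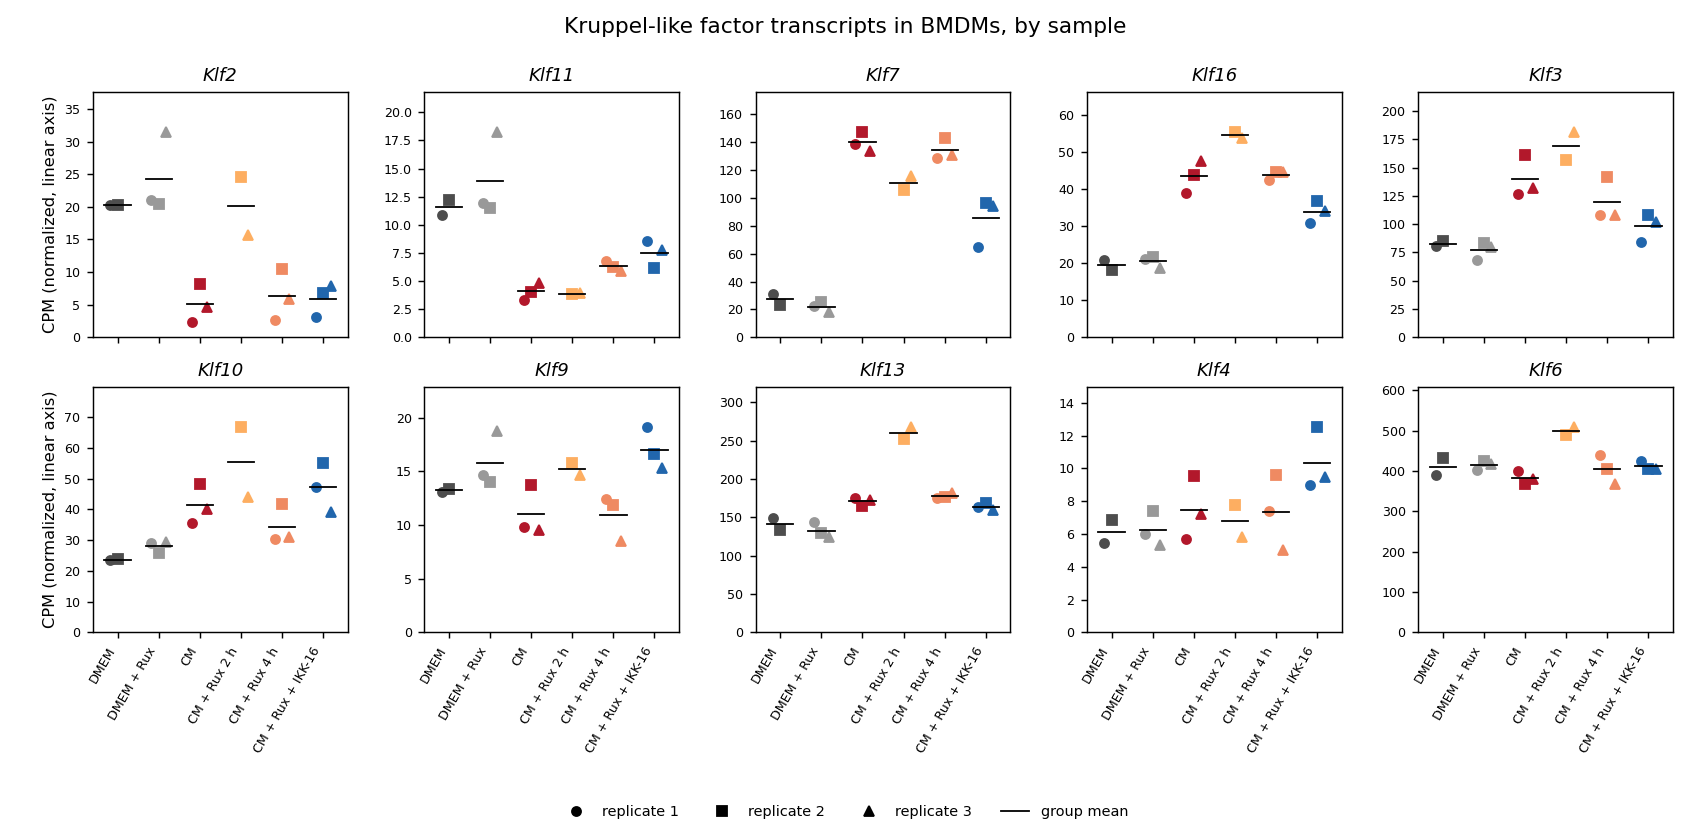
CPM of the 10 members in every sample (linear axes from 0), with a symbol for each replicate number and a line at the group mean. The Klf2 and Klf11 samples with CM and a label of 4 h or none lie below those of DMEM, the Klf7 and Klf16 samples with CM lie above all samples without it, and Klf6 stays between 369 and 508 CPM throughout.

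RefSeq gives a promoter (GRCm38.p6, 250 bases before to 50 bases after the start site) for 8 of the 10 members, and none for Klf10 and Klf16. Each was taken at 1 start site. That of Klf7 (64121389) lies inside the gene, whose span runs to 64122282 on the minus strand, so its sequence lies within that span. The sequences of Klf2, Klf7 and Klf11 are shown because these members had the largest changes in CM among those with an entry. Capitals mark, on either strand, the GC box GGGCGG and the CACCC box CCACCC, the kinds of element that Kruppel-like factors themselves bind, and the MEF2 motif, CTA and TAG with any 4 bases between.
Klf2, chr8:72318812-72319111, plus strand: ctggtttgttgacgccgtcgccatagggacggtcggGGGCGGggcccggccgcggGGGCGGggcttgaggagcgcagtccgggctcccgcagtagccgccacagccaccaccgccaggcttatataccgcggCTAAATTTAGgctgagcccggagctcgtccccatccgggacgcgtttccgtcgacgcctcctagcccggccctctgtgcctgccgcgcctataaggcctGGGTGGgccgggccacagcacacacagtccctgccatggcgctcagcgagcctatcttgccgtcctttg
Klf7, chr1:64121340-64121639, minus strand: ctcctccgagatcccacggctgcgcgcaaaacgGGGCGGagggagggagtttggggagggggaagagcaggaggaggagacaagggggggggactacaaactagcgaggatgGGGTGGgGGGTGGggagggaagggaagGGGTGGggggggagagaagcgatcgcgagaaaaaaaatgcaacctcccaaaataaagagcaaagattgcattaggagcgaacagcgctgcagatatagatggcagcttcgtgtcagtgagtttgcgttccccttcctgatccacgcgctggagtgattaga
Klf11, chr12:24651121-24651420, plus strand: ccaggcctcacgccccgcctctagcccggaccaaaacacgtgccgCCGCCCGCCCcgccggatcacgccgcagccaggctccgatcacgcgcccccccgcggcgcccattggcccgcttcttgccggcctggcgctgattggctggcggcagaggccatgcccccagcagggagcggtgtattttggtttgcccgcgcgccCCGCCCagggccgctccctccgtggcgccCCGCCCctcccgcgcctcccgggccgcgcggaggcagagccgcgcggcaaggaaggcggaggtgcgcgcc

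A GC box stood in 7 of the 8 member promoters, all but that of Klf9, and in 35.9% of the 32544 mouse promoters of the same length. A CACCC box stood in 4 of 8 (Klf2, Klf3, Klf7 and Klf13) and in 31.6% of all promoters. The members' promoters were GC-rich, with 58.3% to 77.7% GC and a median of 70.7% against 53% over all promoters. The Klf2 promoter held a MEF2 motif (CTAAATTTAG) with its first letter 118 bases before the start site, and 3.7% of all promoters held one. MEF2 factors are the known link from the kinase ERK5 to Klf2 transcription. The STAT motif TTCNNNGAA stood in the promoter of Klf9 alone among the 8 (TTCTGCGAA, 33 bases before the start site) and in 8.33% of all promoters. A loose NF-κB motif, GGG and CC with any 5 bases between, which overlaps GC boxes at several places, stood in 6 of 8, all but Klf7 and Klf9, and in 51% of all promoters. These are matches of letters, and no binding was measured.

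The comparison of CM + Rux with CM asks what JAK inhibition changed in macrophages in tumor medium. No member was called in either direction, where 1.2% of all genes were called higher and 2.13% lower (149 and 263 genes, or 82 and 161 without replicate 1 of CM + Rux, 94 and 164 without replicate 2 of CM, and 93 higher without replicate 1 of CM). Klf11 was the 1 member with an unadjusted p under 0.05, and its samples did not overlap. It was at 3.34, 4.07 and 4.84 CPM in CM and at 6.79, 6.24 and 5.90 CPM in CM + Rux. The log2 fold change was 0.62 (SE 0.19, adjusted p = 0.092 by the quasi-likelihood test of edgeR). With the replicate number as a block it was called (0.64, adjusted p = 0.031), as it was with DESeq2 (0.62, adjusted p = 0.043), without the filter on low counts (adjusted p = 0.028) and without replicate 3 of DMEM + Rux (adjusted p = 0.033). The CM + Rux values of Klf11 still lay below those of DMEM (10.9 and 12.2 CPM). The 9 others had log2 fold changes between -0.26 (Klf10) and 0.28 (Klf2), with adjusted p-values of 0.46 and above, and of 0.13 and above with the replicate block. Between samples of the same number, Klf2, Klf11 and Klf13 were higher with ruxolitinib in 3 of 3, and Klf3, Klf7 and Klf10 were lower in 3 of 3. How many of all genes did so was not counted. With the block the log2 fold changes were 0.28 (adjusted p = 0.74) for Klf2 and 0.06 (adjusted p = 0.64) for Klf13. They were -0.23 (adjusted p = 0.13) for Klf3, -0.06 (adjusted p = 0.87) for Klf7 and -0.27 (adjusted p = 0.23) for Klf10. Klf4, Klf6, Klf7, Klf9 and Klf16 lay between -0.06 and 0.08. Klf13 was the other member whose samples did not overlap, at 175, 165 and 173 CPM in CM and at 175, 176 and 182 CPM in CM + Rux (log2 fold change 0.06). Samples did not overlap for 19.2% of all genes.

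Ruxolitinib without tumor medium changed no member by the same rule. All 10 had an adjusted p of 1 in DMEM + Rux against DMEM, where 0% of all genes were called higher and 0.97% lower, no member had an unadjusted p under 0.05, and DESeq2 called 0 members. The log2 fold changes ran from -0.32 for Klf7 (22.4, 25.6 and 18 CPM in DMEM + Rux) to 0.27 for Klf11 (11.9, 11.5 and 18.2 CPM in DMEM + Rux). Samples did not overlap for Klf2, Klf9 and Klf10, 3 of 10, and for 18.5% of all genes. Among the samples without CM, DMEM + Rux replicate 3 was the highest for Klf2 (31.4 CPM), Klf9 (18.8 CPM) and Klf11 (18.2 CPM). Klf3, Klf4, Klf6, Klf13 and Klf16 had log2 fold changes between -0.10 and 0.06. The effect of ruxolitinib in CM did not differ by the test from that in DMEM for any member, in a comparison that called 0.412% of all genes. That share rests on 29 genes higher and 22 lower, which became 247 and 197 with the replicate block and ranged from 9 to 84 and from 5 to 34 with each sample left out. The 84 came without replicate 2 of DMEM. The differences ran from -0.51 (SE 0.26) for Klf10 to 0.35 (SE 0.27) for Klf11 on the log2 scale, with adjusted p-values of 0.62 and above, no unadjusted p under 0.05, and 0 members called by DESeq2.

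The tumor medium response was also measured under ruxolitinib, in CM + Rux against DMEM + Rux. Klf7, Klf16 and Klf3 were called higher and Klf2, Klf11 and Klf9 lower, 3 of 10 in each direction, where 22.3% of all genes were called higher and 25% lower (1700 and 4672 genes with total counts, in place of 2761 and 3096). Samples did not overlap for 8 members and 70% of all genes. The scale moved this comparison up by 0.301 against total counts. Its samples are not those of CM against DMEM. Klf2 was at 21.1, 20.5 and 31.4 CPM in DMEM + Rux and at 2.72, 10.4 and 5.90 CPM in CM + Rux, with a log2 fold change of -1.93 (SE 0.46, adjusted p = 0.0020). Every CM + Rux sample lay below every DMEM + Rux sample. Klf7 was at 129, 143 and 131 CPM in CM + Rux, 6.1-fold over DMEM + Rux (log2 fold change 2.61, SE 0.16, adjusted p = 1.0e-08). Klf16 had a log2 fold change of 1.10 (SE 0.09), Klf11 of -1.13 (SE 0.18) and Klf3 of 0.63 (SE 0.13), each with adjusted p-values of 6.9e-04 or less. Klf3 fell inside the fold threshold without replicate 2 of CM + Rux (0.49) and with total counts (0.33). Klf9 was at 14.7, 14 and 18.8 CPM in DMEM + Rux and at 12.4, 11.9 and 8.49 CPM in CM + Rux, and the log2 fold change was -0.52 (SE 0.17, adjusted p = 0.013). Its call rested on replicate 3 of either group: without that of CM + Rux or that of DMEM + Rux it was -0.38 (adjusted p = 0.057 and 0.071). Klf10, Klf13, Klf4 and Klf6, at 0.30, 0.43, 0.24 and -0.04, were not called.

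**Figure D3:**
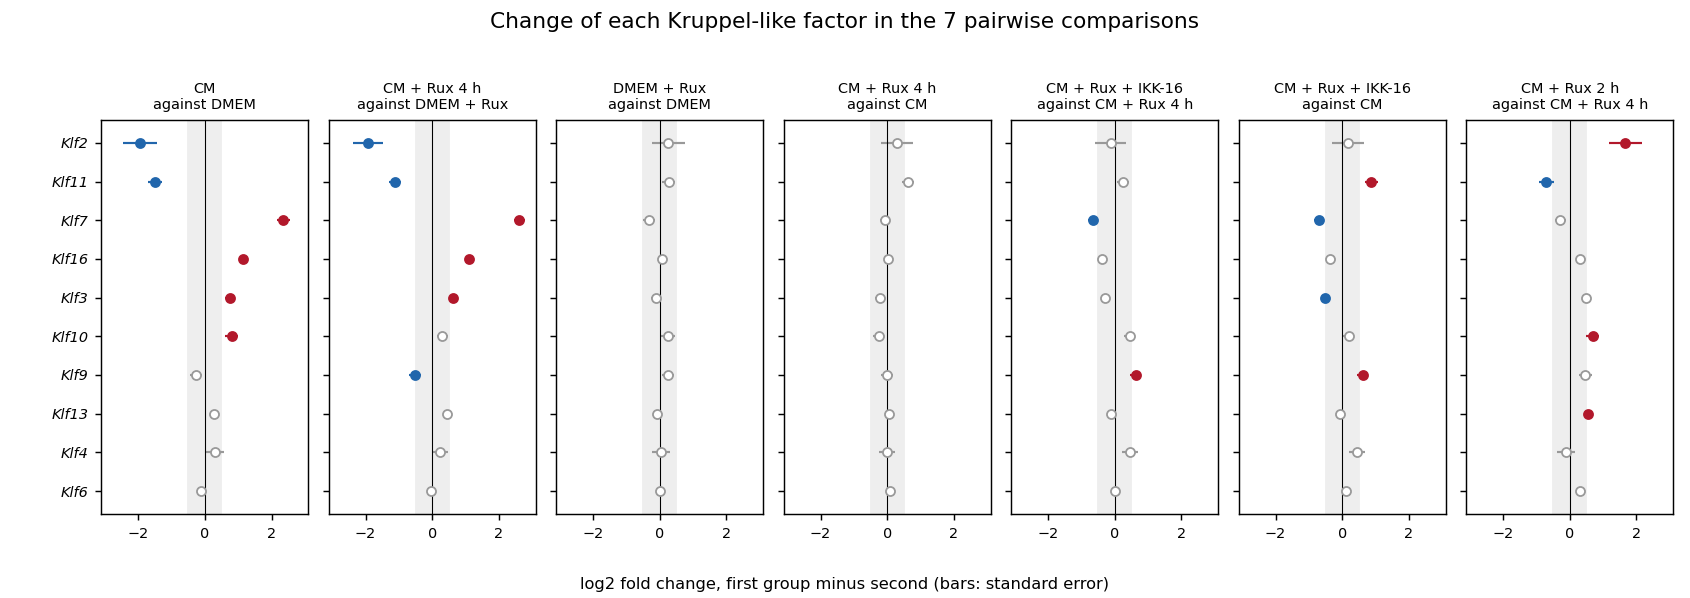
Log2 fold change of each member in the 7 pairwise comparisons, with bars of 1 standard error. Filled points passed both thresholds (red higher, blue lower), open points did not, and the grey band is the fold threshold of 0.5. Klf2 and Klf11 lie left and Klf7 right of the band in CM against DMEM and in CM + Rux against DMEM + Rux. No point is filled in DMEM + Rux against DMEM or in CM + Rux against CM.

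Adding IKK-16 to CM and ruxolitinib asks what IKK inhibition changed on top of JAK inhibition. Klf7 fell and Klf9 rose, 1 of 10 in each direction, where 4.07% of all genes were called higher and 3.66% lower (727 and 350 genes with total counts, in place of 504 and 453). Samples did not overlap for 5 members and 31.5% of all genes. Klf7 went from 129, 143 and 131 CPM in CM + Rux to 65.1, 96.5 and 94.4 CPM in CM + Rux + IKK-16, with replicate 1 the lowest. Its log2 fold change was -0.66 (SE 0.15, adjusted p = 0.011), and -0.49 (adjusted p = 0.043) without replicate 1 of CM + Rux + IKK-16, which is inside the fold threshold. All CM + Rux + IKK-16 samples of Klf7 still lay above the DMEM samples (31.4 and 23.5 CPM). Klf9 went from 12.4, 11.9 and 8.49 CPM to 19.1, 16.6 and 15.3 CPM, a log2 fold change of 0.63 (SE 0.17, adjusted p = 0.021). It lost its call without replicate 3 of CM + Rux (0.48, adjusted p = 0.079) and without replicate 1 of CM + Rux + IKK-16 (0.53, adjusted p = 0.094). Klf16, at 30.9, 36.7 and 34.0 CPM in CM + Rux + IKK-16 and 42.4, 44.6 and 44.7 CPM in CM + Rux, passed the test (adjusted p = 0.012) but not the fold threshold, at -0.37. Klf10 had a log2 fold change of 0.45 (adjusted p = 0.094), and was called with total counts (0.54, adjusted p = 0.027) and without replicate 2 of CM + Rux (0.62, adjusted p = 0.044). With the replicate block Klf10 passed the test inside the fold threshold (0.46, adjusted p = 0.017). Klf4 was at 8.96, 12.5 and 9.46 CPM, with CM + Rux samples at 7.41, 9.61 and 5.03 CPM that overlapped them (0.47, SE 0.24, adjusted p = 0.21). Between samples of the same number Klf4, Klf9 and Klf10 rose in each pair, and Klf3, Klf7, Klf13 and Klf16 fell in each. How many of all genes did so was not counted. Klf4 passed the test with the replicate block, inside the fold threshold (0.48, adjusted p = 0.012). Klf3, Klf6, Klf11 and Klf13 were not called, at -0.29, 0.02, 0.25 and -0.12. Of these, Klf3 passed the test with the replicate block (-0.29, adjusted p = 0.032). Klf2 was not called, at 3.17, 6.72 and 7.83 CPM and a log2 fold change of -0.12 (SE 0.47, adjusted p = 0.90).

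Against CM alone, both inhibitors together raised Klf11 and Klf9 and lowered Klf7 and Klf3, 2 of 10 in each direction, where 6.6% of all genes were called higher and 6.13% lower (1255 and 587 genes with total counts, in place of 817 and 758). This comparison shares its CM samples with CM + Rux against CM, and its CM + Rux + IKK-16 samples with the comparison above. Samples did not overlap for 6 members and 37.9% of all genes. Klf11 went from 3.34, 4.07 and 4.84 CPM in CM to 8.55, 6.17 and 7.80 CPM, a log2 fold change of 0.87 (SE 0.19, adjusted p = 0.0051), and every sample with both inhibitors lay above every CM sample and below the DMEM samples. Klf3 went from 127, 161 and 132 CPM to 84.4, 108 and 102 CPM, a log2 fold change of -0.52 (SE 0.13, adjusted p = 0.012). That call was lost with total counts (-0.41), without replicate 2 of CM (-0.40, adjusted p = 0.059) and without replicate 1 of CM + Rux + IKK-16 (-0.42, adjusted p = 0.061). Klf7 had a log2 fold change of -0.71 (SE 0.15, adjusted p = 0.0043). Klf9 had one of 0.61 (SE 0.17, adjusted p = 0.017), which was lost without replicate 1 or 3 of CM or replicate 1 of CM + Rux + IKK-16 (adjusted p = 0.066, 0.070 and 0.078). Klf16 again passed the test inside the fold threshold (-0.36, adjusted p = 0.0099), and the 5 others had adjusted p-values of 0.20 and above. Of these 5, Klf4 passed the test with the replicate block, inside the fold threshold (0.46, adjusted p = 0.014). The rest had adjusted p-values of 0.24 and above with the block.

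The CM + Rux samples labelled 2 h differed from those labelled 4 h in 4 members. Klf2, Klf10 and Klf13 were higher and Klf11 was lower at 2 h, where 12.6% of all genes were called higher and 10.7% lower (1339 and 1704 genes with total counts, in place of 1556 and 1327). Samples did not overlap for 9 members, all but Klf4, and for 59.6% of all genes. Klf2 was at 24.6 and 15.7 CPM at 2 h and at 2.72, 10.4 and 5.90 CPM at 4 h, a log2 fold change of 1.67 (SE 0.50, adjusted p = 0.017). The 2 h samples spanned the DMEM level of 20.3 CPM. The call was lost without replicate 2 of the 2 h group (1.29, adjusted p = 0.15) or replicate 1 of the 4 h group (1.29, adjusted p = 0.054), and the 2 h group has no replicate 1. Klf13 was at 252 and 267 CPM at 2 h and at 175, 176 and 182 CPM at 4 h, a log2 fold change of 0.54 (SE 0.07, adjusted p = 8.8e-05), or 0.47 with total counts. Both 2 h samples were the highest Klf13 samples of the series. Klf10 was at 66.6 and 44.0 CPM against 30.4, 41.7 and 31.0 CPM, a log2 fold change of 0.69 (SE 0.19, adjusted p = 0.011), which was 0.35 (adjusted p = 0.24) without replicate 2 of the 2 h group. Klf11 was at 3.86 and 3.91 CPM at 2 h, below the 6.79, 6.24 and 5.90 CPM at 4 h, a log2 fold change of -0.70 (SE 0.22, adjusted p = 0.021). That call was lost without replicate 2 or replicate 3 of the 2 h group or replicate 1 of the 4 h group (adjusted p = 0.11, 0.085 and 0.059). Klf7 was at 106 and 116 CPM at 2 h and was not called (-0.28, adjusted p = 0.21). Klf3, Klf6 and Klf16 passed the test at or inside the fold threshold, at 0.50, 0.30 and 0.31, and Klf9 did not pass (0.47, adjusted p = 0.061). With the replicate block Klf9 passed inside the fold threshold (0.48, adjusted p = 0.045). Klf3 was called higher with TMM scaling (0.51, adjusted p = 0.010), with a model of only the groups compared (0.52, adjusted p = 0.030) and in 7 of the fits that left out a sample, with 0.64 (adjusted p = 0.0033) without replicate 2 of the 4 h group.

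Most genes of the wider Kruppel-like and Sp family were too low to be tested. Of 17 further genes, 16 were in the table and 6 passed the filter on low counts (Klf5, Klf8, Sp1, Sp2, Sp3 and Sp4). In CM against DMEM 1 of these 6 rose and 1 fell, where 20.9% and 24.1% of all genes did. Klf8, a repressor of the CtBP-binding class like Klf3, fell from 13.3 and 10.9 CPM in DMEM to 9.67, 7.93 and 7.41 CPM in CM (log2 fold change -0.54, SE 0.20, adjusted p = 0.031). Klf5, an activator best known in epithelial cells, rested on 2 and 0 counts in DMEM and on 10, 8 and 13 counts in CM, so that no fold change is given. It was also called higher in CM + Rux (1.56, 0.629 and 1.27 CPM) than in DMEM + Rux (0, 0.112 and 0.0323 CPM), where 22.3% of all genes were. At 2 h it was called higher than at 4 h (3.70 and 5.6 CPM at 2 h, log2 fold change 2.01, SE 0.44, adjusted p = 0.0027), where 12.6% of all genes were. Klf5 exceeded 1 CPM only in CM + Rux samples of 2 h and 4 h, so it passed the filter only through groups of these calls. No conclusion is drawn from them. No other gene of this list was called in any of the 7 comparisons, whose shares over all genes are given above.

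A list of 19 genes that act with or upstream of Kruppel-like factors (corepressors, coactivators, the ERK5 and MEF2 axis, and ubiquitin ligases of these factors) was tested in full. In CM against DMEM 3 of 19 rose and 2 fell, where 20.9% and 24.1% of all genes did. Mef2c, a MEF2 factor, went from 134 and 145 CPM in DMEM to 19.2, 15.1 and 18.2 CPM in CM, a log2 fold change of -3.00 (SE 0.11, adjusted p = 8.8e-10). Of the other MEF2 genes of the list, Mef2d rose (0.74, SE 0.11, adjusted p = 6.0e-05) and Mef2a was not called (-0.13, adjusted p = 0.40). Hdac1, a deacetylase of the Sin3 complex, had the largest rise of the list (0.90, SE 0.10, adjusted p = 2.8e-06). In CM + Rux against DMEM + Rux 4 rose and 3 fell, where 22.3% and 25% of all genes did, led by Hdac1 (0.81) and by Wwp1 (-3.11, SE 0.19, adjusted p = 7.5e-09), a ubiquitin ligase known to act on Klf2 protein. At 2 h against 4 h 4 were higher, where 12.6% of all genes were, with the largest difference for Wwp1 (253 and 292 CPM at 2 h against 45.0, 54.1 and 50.4 CPM at 4 h, log2 fold change 2.45), and 1, Ep300, was lower (-0.51, adjusted p = 0.010), where 10.7% of all genes were. Mef2c was at 89.7 and 85.8 CPM at 2 h and at 19.9 to 20.4 CPM at 4 h. With both inhibitors against CM, Mef2c was the 1 gene called higher (0.61, adjusted p = 8.0e-04), where 6.6% of all genes were. None of the 19 was called for ruxolitinib in CM or in DMEM, or for IKK-16 added to ruxolitinib. Few of all genes were called there either: 1.2% higher and 2.13% lower for ruxolitinib in CM, and 0% and 0.97% in DMEM. For IKK-16 the shares were 4.07% and 3.66%.

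**Figure D4:**
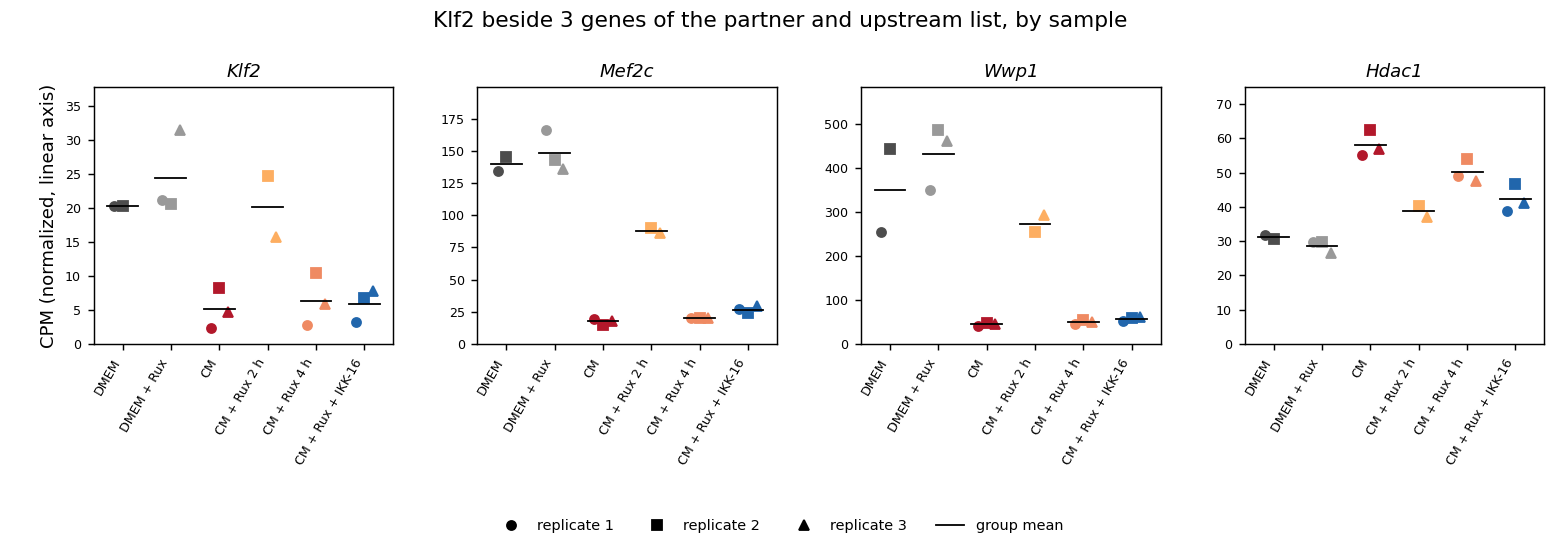
CPM of Klf2, Mef2c, Wwp1 and Hdac1 in every sample (linear axes from 0), with a symbol for each replicate number and a line at the group mean. Mef2c lies at 134 and above in DMEM, at 89.7 and 85.8 in CM + Rux 2 h and at 29.2 or less in the other groups with CM, and the Klf2 samples at 2 h, at 24.6 and 15.7, lie on either side of the DMEM level of 20.3.

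Genes with the most similar course to a member were sought among 1631 genes that varied over the 16 samples, by the root mean square difference of log2(CPM + 1) values centred on each gene. The points share their libraries, and the genes are named as a description. Closest to Klf2 were Nostrin (0.38), Hacd4 (0.39) and Itga6 (0.40), where Klf2 itself varied with an SD of 1.07. Klf7, with a similar spread, was matched more tightly by N4bp1 (0.18), Snapc1 (0.19) and Notch1 (0.22). Klf16 (SD 0.54) was closest to Mex3c (0.12), Cdca4 (0.12) and Elp5 (0.13), Klf11 (SD 0.63) to Natd1 (0.21), Ptpn21 (0.23) and S1pr2 (0.24), and Klf10 (SD 0.43) to Cdk20 (0.17). Klf3 (SD 0.42) was closest to Ppp1r18 (0.19) and Klf13 (SD 0.30) to Rin3 (0.23). Klf6, Klf9 and Klf4 varied least or near least, with SDs of 0.13, 0.31 and 0.33, and their nearest genes lay at 0.40, 0.36 and 0.32. The search held only genes with an SD of 0.5 or more, which limits how close a match to members that vary little can be. Klf13, with an SD of 0.30, was still matched at 0.23.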

How the data were processed

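RNA of 16 BMDM samples in 6 groups was sequenced on stranded, paired-end libraries. The authors trimmed reads with Trimmomatic 0.33, aligned them to GRCm38 with HISAT2 2.1.0 and counted fragments with featureCounts 1.6.2. The deposited values are whole-number counts per Ensembl gene, without scaling or filter. Symbols from a name table matched 55141 of 55487 identifiers. Counting took fragments in the reverse-stranded orientation with a mapping quality of at least 10. Exons of Klf3 and Klf7 overlap opposite-strand genes that held 40 and 10 counts over all samples.

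The filter kept the 12372 genes that exceeded 1 CPM in 2 or more samples, with all 10 members. After scaling by relative log expression, 1 model of 6 groups was fitted with the quasi-likelihood test of edgeR 4.0.16 (limma 3.58.1, R 4.3.3). These scaling, filter and threshold settings are those of the study's methods. Adjusted p-values in the text come from this test with Benjamini-Hochberg adjustment over 12372 genes, unless another fit or DESeq2 1.42.0 is named. The other fits were filtered and adjusted anew, so the number of genes in them can differ. The fit was tested on simulated data. SE is the log2 fold change divided by the root of its F statistic. CPM per kb divides by the exon length in the count table. Other steps used Python 3.11.15, pandas 2.3.3 and numpy 2.4.6.

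Members and gene lists were chosen with earlier results of these data known. All members were tested in every comparison. Of the family and partner lists, the called gene of largest positive and negative change is named, and Sp genes that passed the filter, Mef2a, Mef2d and Mef2c at 2 h are named besides. The 3 nearest genes to each member were taken among genes that averaged 10 CPM or more with an SD of 0.5 or more, and not all are printed. Same-numbered samples deviated together in the comparisons with 3 pairs (correlation of deviations 0.574 to 0.756 for CM + Rux and CM, 0.621 to 0.735 for CM + Rux + IKK-16 and CM + Rux, 0.507 to 0.642 for CM + Rux + IKK-16 and CM, 0.159 to 0.39 for CM + Rux and DMEM + Rux), so the numbers were taken to pair these samples. Alternatives were TMM scaling, no filter, filterByExpr, the replicate block, a model of only the groups compared, DESeq2, no fold threshold and each sample left out. Scaling by total counts alone and a model without the 2 h samples were added after seeing the data.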

Additional observations from a re-analysis of the deposited data

How the results depend on the processing

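Apart from leaving out samples, 134 counts of called members under an alternative stayed within 1.5 times of the reported count and 8 did not. With scaling by total counts alone, 2 members were higher in CM against DMEM (Klf7 and Klf16), 2 were higher with IKK-16 against CM + Rux (Klf9 and Klf10) and 1 was lower with both inhibitors against CM (Klf7). Klf11 was the 1 member called higher in CM + Rux against CM with no filter, with the replicate block and with DESeq2. Without the fold threshold, 2 were lower with IKK-16 against CM + Rux, where 947 of the 12372 genes were, in place of 453. At 2 h against 4 h 6 were higher without it, and the genes called lower there went from 1327 to 2471. The share of all genes called higher there without the threshold is not given, so the 6 are not read as a trait of the members. Over all genes, the calls in CM + Rux against CM went from 149 higher and 263 lower to 305 and 440 with the block and 269 and 416 with no filter. Those for the difference between the ruxolitinib effects went from 29 and 22 to 247 and 197 with the block, 213 and 136 with no filter and 147 and 87 with DESeq2. The replicate block changed no other call of a member. Inside the fold threshold it brought Klf4 to an adjusted p under 0.05 in CM against DMEM. It did the same for Klf3, Klf4 and Klf10 with IKK-16 against CM + Rux. So it did for Klf4 with both inhibitors against CM, and for Klf9 at 2 h against 4 h. The comparisons with 2 pairs are CM against DMEM, DMEM + Rux against DMEM and 2 h against 4 h. Their same-numbered deviations correlated at 0.224 to 0.446, values that overlap those of CM + Rux and DMEM + Rux. Each has a group of 2 samples, whose deviations mirror each other, so whether the numbers pair these samples was not settled. In them the block gave 4 higher and 2 lower, 0 and 0, and 3 higher and 1 lower.

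With each sample left out in turn, the counts called higher and lower ranged from 4 to 4 and 2 to 2 in CM against DMEM, 0 to 1 and 0 to 0 in CM + Rux against CM, 0 to 2 and 0 to 1 for IKK-16 against CM + Rux, 1 to 2 and 1 to 2 for both inhibitors against CM, 2 to 3 and 2 to 3 in CM + Rux against DMEM + Rux, and 2 to 4 and 0 to 1 at 2 h against 4 h.

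Changes of sign were limited to members that were not called. With total counts the log2 fold changes were -0.02 for Klf4 and -0.03 for Klf13 in CM against DMEM, 0.00 for Klf4 and 0.02 for Klf9 in CM + Rux against CM, 0.04 for Klf13 with both inhibitors against CM, and -0.06 for Klf4 and -0.01 for Klf10 in CM + Rux against DMEM + Rux. With samples left out, the ranges that crossed 0 were, for CM + Rux against CM, -0.35 to 0.84 (Klf2), -0.26 to 0.20 (Klf4), -0.11 to 0.19 (Klf9) and -0.06 to 0.08 (Klf16). They were -0.50 to 0.50 (Klf2) and -0.04 to 0.09 (Klf6) for IKK-16 against CM + Rux, and -0.15 to 0.71 (Klf2) for both inhibitors against CM. In DMEM + Rux against DMEM they were -0.13 to 0.21 (Klf4), -0.06 to 0.10 (Klf6) and -0.03 to 0.17 (Klf16), in CM + Rux against DMEM + Rux -0.10 to 0.02 (Klf6), and at 2 h against 4 h -0.36 to 0.13 (Klf4). For the difference between the ruxolitinib effects they were -0.61 to 0.57 (Klf2), -0.30 to 0.16 (Klf4), -0.02 to 0.14 (Klf6) and -0.15 to 0.04 (Klf16). Where a call changed, the cause was not tested. The small groups and the spread of Klf2 between replicates limit what its unchanged calls show.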
